A study of Mus musculus with 11 samples.

Results

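The cell-surface proteins that receive or capture Hedgehog ligand were followed as 5 genes in mouse molar tooth germs: *Ptch1*, *Hhip*, *Cdon*, *Boc* and *Gas1*. They were chosen by symbol, and all 5 were found among the 16755 genes of the deposited table. Gene expression was measured by poly-A RNA sequencing of maxillary molar tooth germs at E14.5, in the C57BL/6 background and from embryos of both sexes. There were 4 wild-type libraries, 4 libraries of *Cilk1*-/- embryos and 3 of *Cilk1*-/-;PCS1–MRCS1 homozygous deletion embryos, which are called the compound mutant here. In *Cilk1*-/- mice exon 6 of *Cilk1*, a kinase of the primary cilium, was deleted by EIIa-Cre in germ cells, so every tissue carries the deletion. The compound mutant carries the same deletion and also lacks the region from PCS1 to MRCS1, the oral enhancers of *Shh*. Mice with the enhancer deletion alone are not analysed here, so the compound mutant can be set against *Cilk1*-/- but not against its other parent line. Each biological replicate held n = 6, without a statement of whether germs or embryos are meant. The labels describe the embryos as littermates, with wild type and *Cilk1*-/- in the earlier libraries and all 3 genotypes in the later ones, and do not say which replicates share a litter.

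In the Hedgehog pathway, the ligand Shh binds the receptor Ptch1, which otherwise holds the transducer Smo inactive at the primary cilium. *Ptch1* and *Hhip* are transcribed in response to the signal, and both proteins bind ligand and limit its reach. Cdon, Boc and Gas1 are co-receptors that present ligand to Ptch1, and their genes are known to be repressed where the pathway is active. In the molar germ, Shh is made by the enamel knot of the dental epithelium, and the surrounding epithelium and mesenchyme respond. The comparisons ask how this set of receptors differs when ciliary signalling is impaired, and when *Shh* enhancers are removed in addition.

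*Ptch1* lies on the minus strand of chromosome 13 (63508328 to 63573598, GRCm38) and has 10 transcripts in GENCODE. *Hhip* lies on the minus strand of chromosome 8 (79965851 to 80058006), *Cdon* on the plus strand of chromosome 9 (35421128 to 35507652), and *Boc* on the minus strand of chromosome 16 (44485049 to 44558897). *Gas1* is a single-exon gene on the minus strand of chromosome 13 (60174405 to 60177365). The long noncoding RNA gene Gm48488 shares 684 bp with *Gas1* on the opposite strand, and it is not stated whether reads were counted by strand, so reads from the pair cannot be told apart. The same holds for *Hhip*, of which an exon overlaps the opposite-strand RNA gene Gm27820 over 175 bp. RefSeq promoter windows of 300 bases (GRCm38.p6) were matched for *Ptch1*, *Hhip*, *Cdon* and *Gas1*. The 250 bases before the start site are shown for *Ptch1* and *Hhip*, since these 2 genes moved together in every comparison. They are written 5′ to 3′ on the strand of the gene, and capitals mark each CG dinucleotide. The *Ptch1* stretch is chr13:63565736-63565985 on the minus strand. It precedes 1 of the gene's 10 annotated starts and lies in an intron of 2 longer transcripts. The *Hhip* stretch is chr8:80058009-80058258 on the minus strand and lies upstream of both annotated transcripts.
Ptch1: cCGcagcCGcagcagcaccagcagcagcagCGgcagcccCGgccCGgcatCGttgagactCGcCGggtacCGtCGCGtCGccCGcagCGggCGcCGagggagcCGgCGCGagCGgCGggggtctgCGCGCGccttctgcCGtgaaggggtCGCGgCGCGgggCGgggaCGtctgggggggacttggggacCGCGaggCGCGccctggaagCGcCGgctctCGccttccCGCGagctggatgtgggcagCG
Hhip: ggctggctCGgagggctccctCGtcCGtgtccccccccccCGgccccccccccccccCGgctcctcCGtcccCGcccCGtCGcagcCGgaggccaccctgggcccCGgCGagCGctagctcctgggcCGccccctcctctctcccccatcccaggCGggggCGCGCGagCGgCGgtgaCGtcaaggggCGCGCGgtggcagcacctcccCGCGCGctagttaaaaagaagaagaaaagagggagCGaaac

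The 300-base window of *Ptch1* held 47 CG dinucleotides, more than 98.6% of all 32851 windows, and that of *Hhip* held 30, more than 88.3%. The window of *Gas1* held 17 and that of *Cdon*, at an internal start (35452076), held 3, beside a median of 7 over all windows. The GC content was 76.3% for *Ptch1*, 73.7% for *Hhip*, 62.3% for *Gas1* and 44.7% for *Cdon*, with a median of 52.7%. The sequence GACCACCCA, which Gli factors are known to bind, was searched on both strands. It was not in any of these 4 windows, and neither was GACCNCCCA, of which it is 1 form. Of all windows, 0.253% hold the first sequence and 0.977% the second. The absence covers these letters in these windows alone.

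The deposited values are log2 values, with 1 added to a normalized value, probably FPKM, which is scaled by gene length and so allows levels to be compared between genes. As 257 genes have a value below 0, which that scale cannot give, a further adjustment that is not stated in the sources used here must have been made, and turned-back values and percentages are approximate for that reason. None of the 5 genes has a value below 0. In wild-type germs *Ptch1* was the highest of the 5, at 6.07 ± 0.119 (SD, n = 4) on the log2 scale. *Gas1* followed at 5.0 ± 0.119, *Boc* at 4.30 ± 0.211, *Cdon* at 3.53 ± 0.0842 and *Hhip* at 2.34 ± 0.149. The libraries of each gene did not overlap with those of its neighbour in this order. Turned back from the log2 scale, the wild-type mean of *Ptch1* was 66.4, that of *Gas1* 31.1, that of *Boc* 18.9, that of *Cdon* 10.6 and that of *Hhip* 4.07. *Ptch1* stood above 95% of all genes in wild-type germs and *Hhip* above 39.2%.

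The order changed between genotypes. In *Cilk1*-/- germs *Ptch1*, at 5.18 ± 0.0694 (SD, n = 4), overlapped with *Gas1*, at 5.08 ± 0.143. In the compound mutant *Gas1* was the highest at 5.05 ± 0.505 (SD, n = 3), *Boc* was at 4.47 ± 0.607 and *Ptch1* came next at 4.41 ± 0.564. These 3 ranges overlapped, as did those of *Ptch1*, *Boc* and *Cdon* (3.64 ± 0.483). *Hhip* remained the lowest in each genotype, at 1.88 ± 0.121 in *Cilk1*-/- and 1.40 ± 0.170 in the compound mutant.

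**Figure D1:**
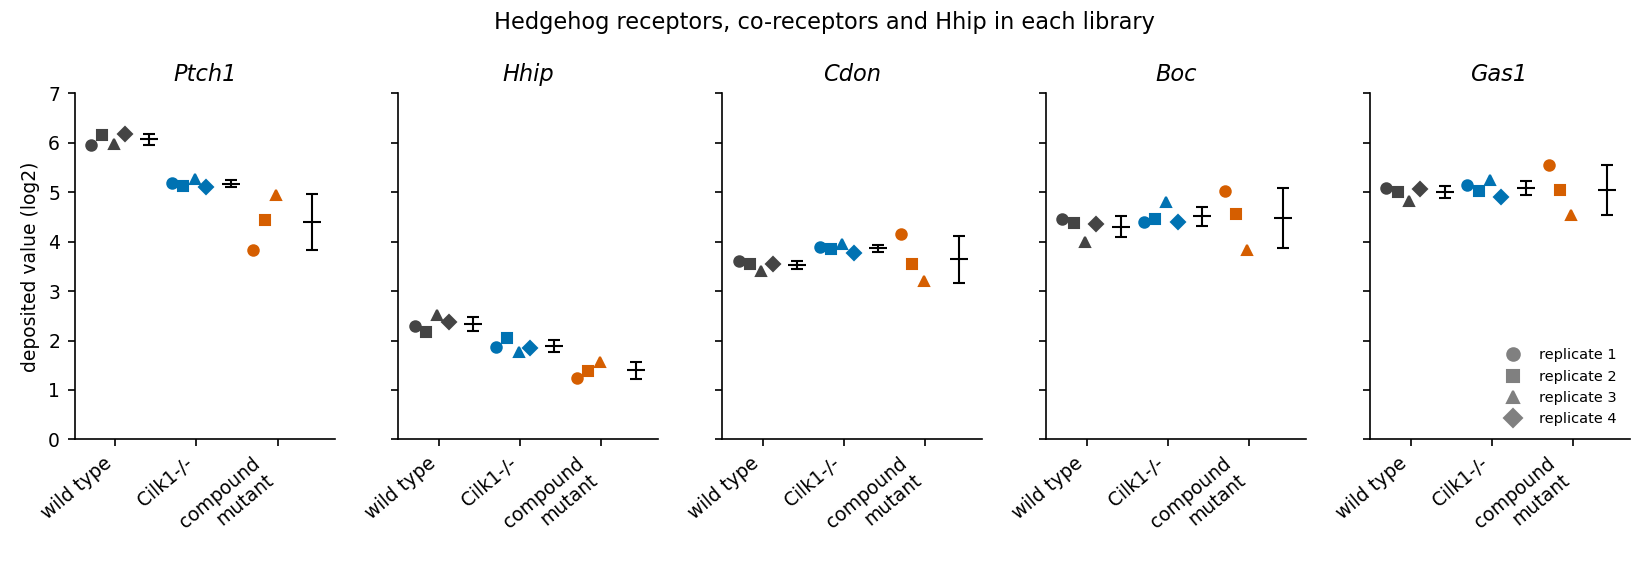
Deposited log2 value of each gene in every library, by genotype (4 wild-type, 4 *Cilk1*-/- and 3 compound mutant libraries). The bar with caps beside each group is its mean ± SD, and the marker shape gives the replicate number. *Ptch1* and *Hhip* step down without overlap, while the compound mutant libraries of *Cdon*, *Boc* and *Gas1* spread above and below the other libraries.

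Before the comparisons, the labels were checked on *Cilk1* itself, which the table lists under its older symbol *Ick*. On the log2 scale its means were 3.53 (wild type), 2.80 (*Cilk1*-/-) and 2.64 (compound mutant), and the 4 *Cilk1*-/- libraries lay below all wild-type libraries (difference -0.73, SE 0.0502, limma adjusted p = 0.000224). Compound mutant 1 to 3 were at 2.67, 2.65 and 2.60, all below the lowest *Cilk1*-/- library at 2.72. As 1 exon is deleted, RNA of the other exons still counts. The enhancer deletion was checked on *Shh*, which these enhancers serve. *Shh* was at 3.66 and 4.02 in compound mutant 1 and 2 on the log2 scale, below the wild-type libraries at 4.18 to 5.18. It was at 6.51 in the library labelled compound mutant 3, the highest of the 11, which goes against the direction of an enhancer deletion. The *Cilk1* value of the same library, 2.60, was the lowest of the 11. Its summed level of 10 dental epithelium markers, 1167, was the highest of the 11. The part of this sum in the *Shh* value was not tested. The libraries differ in other ways. The labels number the libraries in 2 runs of names, wild type 1 to 3 and *Cilk1*-/- 1 to 3 in set 1 and the rest in set 2, so all compound mutant libraries are in set 2 with wild type 4 and *Cilk1*-/- 4. The first principal component held 41.6% of the variance and set compound mutant 1 apart from the other 10 libraries. Of the 11 marker lists examined, the summed level of 10 cartilage markers was 899 in that library, 80.4 and 78.3 in the other compound mutant libraries and between 37.9 and 56.7 in wild type and *Cilk1*-/-. The results on the 5 genes that rest on the compound mutant are therefore also given without library 1 and without the library labelled 3.

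In *Cilk1*-/- germs both genes that answer to the Hedgehog signal fell. *Ptch1* was at 5.96, 6.16, 5.98 and 6.18 in wild-type libraries 1 to 4 and at 5.20, 5.14, 5.26 and 5.11 in *Cilk1*-/- libraries 1 to 4 on the log2 scale. All *Cilk1*-/- libraries lay below all wild-type libraries, as for 10.7% of all genes, and the difference was -0.89 (SE 0.184, 95% confidence interval -1.30 to -0.49, limma adjusted p = 0.0374). Turned back, the mean in *Cilk1*-/- was 35.2, which is 53.0% of the wild-type mean. *Hhip*, which codes for a ligand-binding decoy, was at 2.28, 2.16, 2.51 and 2.38 in wild type and at 1.87, 2.05, 1.77 and 1.84 in *Cilk1*-/-. The groups again did not overlap, with a difference of -0.45 (SE 0.0992, interval -0.67 to -0.23, limma adjusted p = 0.0450) and a turned-back mean of 2.70, or 66.4% of that in wild type. As the groups do not overlap, both genes had to be lower in *Cilk1*-/- in all 4 same-number pairs. The differences within pairs were -1.08 to -0.72 for *Ptch1* and -0.75 to -0.11 for *Hhip*. Marker sums of neurons (55.6 to 68.2, against 43.1 to 53.0 in wild type) and of Schwann cells and glia (28.9 to 32.4, against 25.0 to 27.9) were higher in all *Cilk1*-/- libraries, and their part in these differences was not tested.

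Of all genes, 1.38% passed as lower at an adjusted p under 0.05 in this comparison, and 0.215% did so with a fold change of at least 1.5. *Ptch1* is among the latter, and *Hhip* is not, since its log2 difference lies inside 0.58. Adding 1 before the logarithm understates the change of a low gene. With 0.1 added in its place the *Hhip* difference was -0.57 (adjusted p = 0.0536) and that of *Ptch1* -0.91 (adjusted p = 0.0399).

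The calls depended on how the spread was estimated. Over all genes, wild-type and *Cilk1*-/- libraries of the same number deviated from their genotype means in opposite directions, so a fit without the replicate number understates the error of this difference. With the replicate number as a block over the 3 genotypes, the limma adjusted p was 0.149 for *Ptch1* and 0.186 for *Hhip*. In a fit of wild type and *Cilk1*-/- alone, in which the wide spread of the compound mutant has no part, it was 0.000386 and 0.0122, and with the block in that fit 0.00979 and 0.118. Leaving out any 1 of the 8 wild-type and *Cilk1*-/- libraries kept both genes lower but ended the call, with adjusted p between 0.0690 and 0.124 for *Ptch1* and between 0.0714 and 0.141 for *Hhip*. The exact two-sided permutation test over libraries gave p = 0.0286 for each gene, the smallest value it can give with 4 against 4, and swaps within the 4 pairs gave p = 0.125, also the smallest possible there.

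The co-receptors did not pass the test in *Cilk1*-/- germs. *Cdon* was at 3.62, 3.54, 3.42 and 3.56 in wild type and at 3.89, 3.86, 3.95 and 3.78 in *Cilk1*-/- libraries 1 to 4. All *Cilk1*-/- libraries lay above all wild-type libraries, as was the case for 10.2% of all genes, and the difference was 0.34 (SE 0.157, interval -0.01 to 0.68, limma adjusted p = 0.256). Its turned-back mean in *Cilk1*-/- was 129% of that in wild type. In the fit without the compound mutant the same difference had an adjusted p of 0.00640, or 0.0797 with the replicate block, and without compound mutant 1 it had 0.0361. The standard deviation of *Cdon* was 0.0842 in wild type and 0.0724 in *Cilk1*-/- but 0.483 in the compound mutant, and all of these enter the estimate of the spread in the fit of 3 genotypes.

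*Boc*, a paralog of *Cdon*, was at 4.46, 4.39, 3.99 and 4.37 in wild type and at 4.40, 4.46, 4.81 and 4.40 in *Cilk1*-/-. The groups overlapped, and the difference was 0.22 (interval -0.27 to 0.70, limma adjusted p = 0.628). *Gas1*, which codes for a membrane-anchored co-receptor, was at 5.09, 5.01, 4.83 and 5.08 in wild type and at 5.14, 5.03, 5.24 and 4.91 in *Cilk1*-/-. The groups overlapped here too, with a difference of 0.08 (interval -0.30 to 0.46, limma adjusted p = 0.842). For both genes wild type 3 was the lowest and *Cilk1*-/- 3 the highest of these 8 libraries. The intervals leave room for a rise of up to 0.70 for *Boc* and 0.46 for *Gas1* on the log2 scale, so the data do not show that these genes were unchanged. As the RNA came from whole germs, fewer cells that express a gene and less RNA per cell cannot be told apart.

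**Figure D2:**
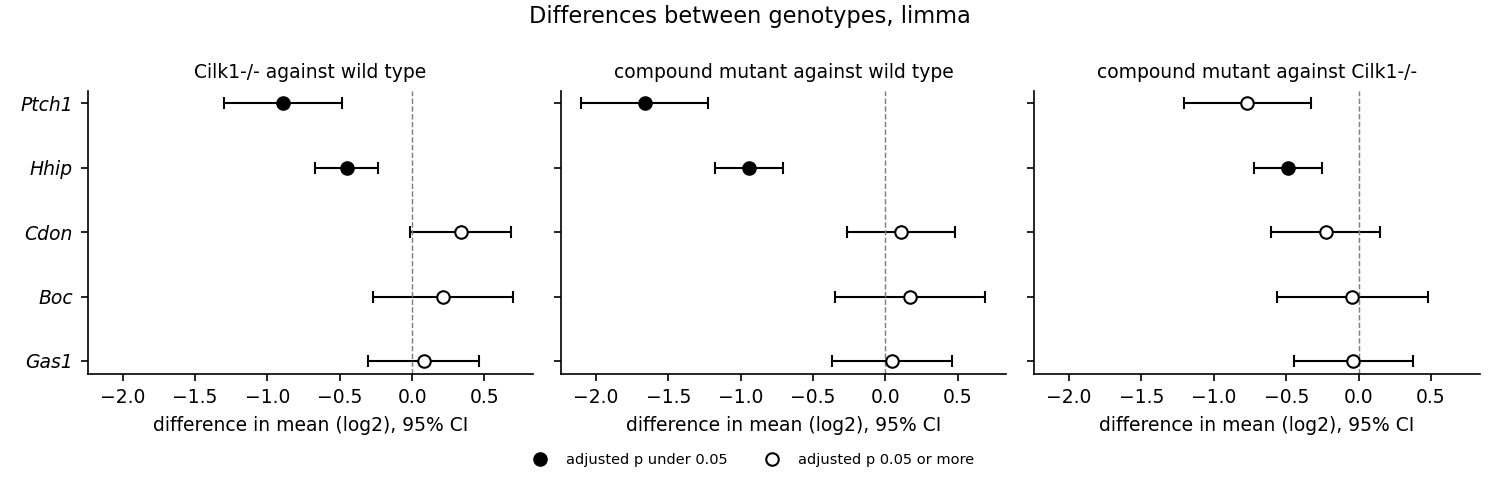
Difference in mean log2 value between genotypes for each gene, with the 95% confidence interval from the limma fit of all 11 libraries. Filled points have an adjusted p under 0.05. The intervals of *Ptch1* and *Hhip* lie below 0 in each comparison, and those of *Cdon*, *Boc* and *Gas1* include 0.

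In the compound mutant *Ptch1* and *Hhip* were lower still. *Ptch1* was at 3.82, 4.45 and 4.95 in compound mutant libraries 1 to 3, all below the *Cilk1*-/- libraries, the lowest of which was at 5.11. Against wild type the difference was -1.66 (SE 0.198, interval -2.10 to -1.22, limma adjusted p = 0.00284), and the turned-back mean of 21.3 was 32.1% of that in wild type. *Hhip* was at 1.23, 1.38 and 1.57, all below the lowest *Cilk1*-/- library at 1.77. Against wild type it fell by 0.94 on the log2 scale (SE 0.107, interval -1.18 to -0.70, limma adjusted p = 0.00245), to a turned-back mean of 1.64, or 40.4% of wild type. In this comparison 3.75% of all genes passed as lower, and 0.633% also had a fold change of at least 1.5, as both genes did.

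Against wild type the groups of both genes did not overlap, as for 9.05% of all genes on the lower side. Both calls held with the replicate block over the 3 genotypes (adjusted p = 0.0341 for *Ptch1* and 0.0431 for *Hhip*, 0.119% of all genes passing as lower), but with the block in a fit of only wild type and the compound mutant both were lost (adjusted p = 0.360 for each). These blocks tie compound mutant libraries to pairs by number alone, while their labels place them in set 2. Without the block, both calls held in each fit that left out 1 library, where the adjusted p was at most 0.0145 and 0.0136. Without compound mutant 1 the differences were -1.37 for *Ptch1* (adjusted p = 0.00115) and -0.86 for *Hhip* (adjusted p = 0.00632), and without the library labelled 3 they were -1.94 (adjusted p = 0.000447) and -1.03 (adjusted p = 0.00219). With the library set as a term the adjusted p was 0.0545 and 0.0533, and it was 0.360 for both when pair 4 and the compound mutant formed a single block. Within set 2, the difference of the compound mutant mean from wild type 4 was -1.78 for *Ptch1* and -0.99 for *Hhip*, with 1 wild-type library and no test.

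The compound mutant and *Cilk1*-/- share the *Cilk1* deletion, and in the comparison between them *Hhip* passed the test while *Ptch1* did not. *Ptch1* differed by -0.77 (SE 0.198, interval -1.21 to -0.33, limma adjusted p = 0.0606) and *Hhip* by -0.49 (SE 0.107, interval -0.73 to -0.25, limma adjusted p = 0.0405). Lower genes at an adjusted p under 0.05 made up 2.15% of all genes here, and genes whose compound mutant libraries were all below *Cilk1*-/- 9.3%. The turned-back mean of the compound mutant was 60.5% of that in *Cilk1*-/- for *Ptch1* and 60.8% for *Hhip*. With the replicate block the adjusted p was 0.215 for both genes. The *Ptch1* difference rests on which compound mutant library is in the fit, since it was -0.48 without library 1 (adjusted p = 0.0749) and -1.04 without the library labelled 3 (adjusted p = 0.00559). For *Hhip* the call was lost without library 1 (-0.41, adjusted p = 0.0837) and without any 1 of the wild-type or *Cilk1*-/- libraries, where the adjusted p lay between 0.0525 and 0.0952, and it held without the library labelled 3 (-0.58, adjusted p = 0.0134). The summed level of skeletal muscle markers (13 of 15 measured) was 11.5 to 13.9 in the compound mutant, below 28.9 to 78.9 in *Cilk1*-/-, with 3 markers passing as lower, and 13.9 to 43.2 in wild type. Its part in the differences of *Ptch1* and *Hhip* was not tested.

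Both genes thus had groups that did not overlap at either step, with *Cilk1*-/- libraries below wild type and compound mutant libraries below *Cilk1*-/-. This order held for 0.406% of all genes. The comparisons share libraries, so the steps are not independent of each other.

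**Figure D3:**
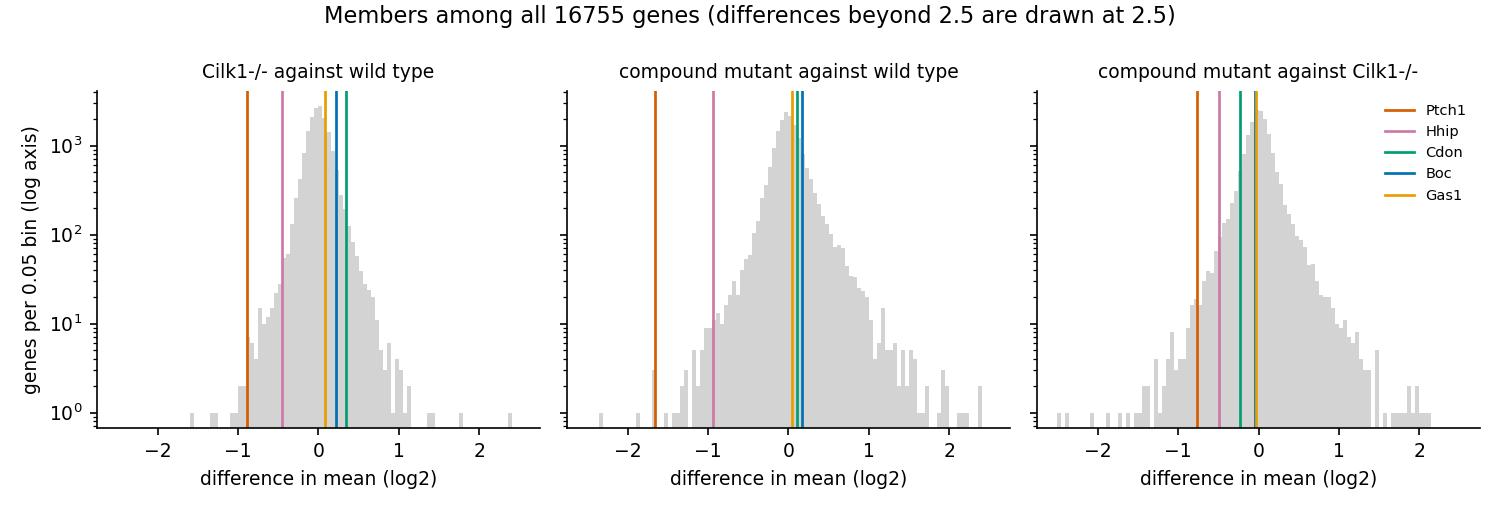
Histograms of the difference in mean log2 value over all 16755 genes in each comparison, with a line for each of the 5 genes and a log axis for the number of genes. *Ptch1* and *Hhip* lie on the lower side in each panel. *Cdon*, *Boc* and *Gas1* lie nearer to the median of all genes, which is near 0, with *Cdon* at 0.34 in *Cilk1*-/- against wild type.

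The means of the co-receptors in the compound mutant were close to those of the other genotypes, but the 3 libraries were far apart. *Cdon* was at 4.16, 3.55 and 3.21 in compound mutant libraries 1 to 3, *Boc* at 5.03, 4.56 and 3.83, and *Gas1* at 5.55, 5.05 and 4.54. For each of the 3 genes compound mutant 1 was the highest and the library labelled compound mutant 3 the lowest of all 11 libraries, a pattern found in 2.90% of all genes. Against wild type the differences were 0.11 for *Cdon* (interval -0.27 to 0.48), 0.17 for *Boc* (-0.35 to 0.69) and 0.05 for *Gas1* (-0.37 to 0.46), with limma adjusted p of 0.719, 0.675 and 0.901. Against *Cilk1*-/- they were -0.23 (interval -0.60 to 0.15), -0.04 (-0.56 to 0.48) and -0.04 (-0.45 to 0.38), with limma adjusted p of 0.445, 0.937 and 0.936. Except for *Cdon* against *Cilk1*-/-, which stayed negative, the direction of these differences was set by single libraries. Without compound mutant 1 the differences from wild type were -0.15 for *Cdon*, -0.11 for *Boc* and -0.21 for *Gas1*, and the differences from *Cilk1*-/- were -0.49 for *Cdon* (adjusted p = 0.0305), -0.32 for *Boc* and -0.29 for *Gas1*. Without the library labelled compound mutant 3 the differences from wild type were 0.33 for *Cdon*, 0.49 for *Boc* and 0.30 for *Gas1*, and those from *Cilk1*-/- were -0.01, 0.28 and 0.22.

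*Ptch1* and *Hhip* ran in the opposite order over the same 3 libraries, with library 1 the lowest and the library labelled 3 the highest. An order of this kind over the 3 libraries was seen in 14.5% of all genes. Between the highest and lowest compound mutant library the range was 1.13 for *Ptch1*, 1.20 for *Boc*, 1.01 for *Gas1* and 0.95 for *Cdon* on the log2 scale, against a median range of 0.25 over the 13028 genes with a mean of at least 1. Their ranges were wider than those of 93.7% to 96.2% of these genes. The range of *Hhip*, 0.34, was wider than that of 65.5%.

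The compound mutant libraries also differed from each other in their marker sums, not all in 1 order. The summed turned-back level of 10 dental epithelium markers was 642, 765 and 1167 in compound mutant 1 to 3, beside 871 to 1095 in wild type and 917 to 1132 in *Cilk1*-/-. The sum of 10 dental mesenchyme markers was 559, 923 and 698, beside 876 to 970 in wild type and 791 to 909 in *Cilk1*-/-. The neuron list (14 of 15 markers measured) summed to 280, 63.2 and 91.6, beside 43.1 to 53.0 in wild type and 55.6 to 68.2 in *Cilk1*-/-. The 10 Schwann cell and glia markers summed to 56.3, 29.2 and 28.7, beside 25.0 to 27.9 in wild type and 28.9 to 32.4 in *Cilk1*-/-. All 3 compound mutant libraries thus lay above wild type in both sums, and 2 neuron markers passed as higher against wild type. In the library labelled compound mutant 3 the 10 erythroid markers summed to 1060, against 2892 to 4183 in the other libraries. The oral keratinization list (9 of 10 measured) summed to 39.9, 38.3 and 212, beside 70.0 to 137 in wild type and 105 to 185 in *Cilk1*-/-. Compound mutant 1 and 2 thus lay below all wild-type and *Cilk1*-/- libraries in this sum, and the library labelled 3 above them. No marker of these lists was at 0 in all libraries of a genotype. The part of these differences in the values of the 5 genes was not tested.

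**Figure D4:**
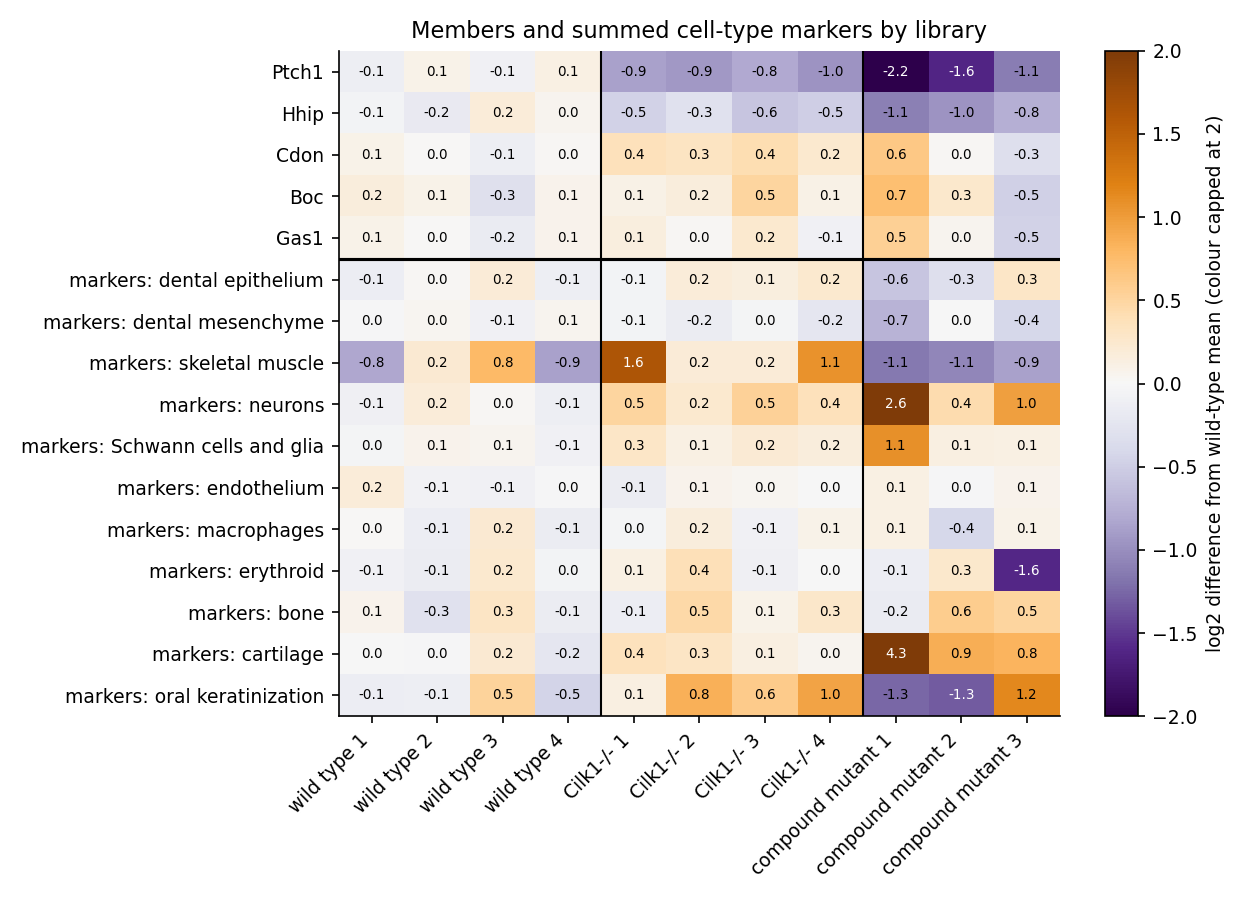
Log2 difference of each library from the wild-type mean for the 5 genes (top) and for the summed level of 11 marker lists (below), with the colour capped at 2. Compound mutant 1 combines high *Cdon*, *Boc* and *Gas1* and low *Ptch1* with high cartilage and neuron marker sums, and the library labelled compound mutant 3 has low *Cdon*, *Boc* and *Gas1* with high keratinization and low erythroid sums.

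The balance of receptor and co-receptors was described by setting *Ptch1* beside the sum of *Cdon*, *Boc* and *Gas1* in each library, on the turned-back scale. In wild-type libraries 1 to 4 *Ptch1* was 0.936, 1.14, 1.19 and 1.14 times this sum, so receptor and co-receptor transcripts were at similar levels. In *Cilk1*-/- libraries the ratio was 0.522, 0.516, 0.478 and 0.540, and no library overlapped with wild type. In compound mutant libraries it was 0.139, 0.318 and 0.684. Libraries 1 and 2 thus lay below every *Cilk1*-/- library and the library labelled 3 above all of them. The mean of the sum was 60.6 for wild type (SD 5.86, n = 4) and 68.7 for *Cilk1*-/- (SD 6.94, n = 4). It was 67.9 for the compound mutant (SD 25.5, n = 3).

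**Figure D5:**
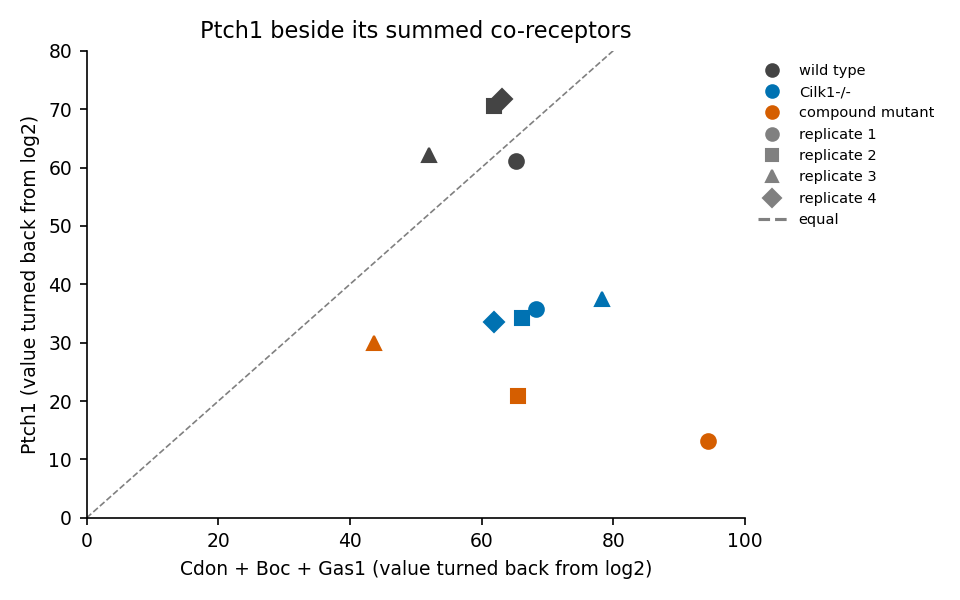
Turned-back value of *Ptch1* against the sum of *Cdon*, *Boc* and *Gas1* in each library, with colour for genotype and shape for replicate number. Wild-type libraries lie near the dashed line of equal levels, *Cilk1*-/- libraries at about the same sum with lower *Ptch1*, and the 3 compound mutant libraries spread from a sum of 94.5 with *Ptch1* at 13.2 to a sum of 43.7 with *Ptch1* at 29.9.

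Among other genes of the receptor side, *Gpc3*, a glypican known to bind Hedgehog, passed the test. Against wild type its log2 difference was -0.46 in *Cilk1*-/- (limma adjusted p = 0.0293) and -0.45 for the compound mutant (limma adjusted p = 0.0259), and with the replicate block the adjusted p was 0.134 and 0.111. Leaving out any 1 of the wild-type or *Cilk1*-/- libraries ended the first call (adjusted p 0.0562 to 0.104), and leaving out wild type 1, 2 or 4 ended the second (0.0582 to 0.0803). Its level in the compound mutant differed from that in *Cilk1*-/- by 0.01 (interval -0.20 to 0.22). *Lrp2*, *Gpc4*, *Gpc6*, *Hhipl1* and *Hhipl2* differed by less than 0.20 on the log2 scale in each comparison and did not pass. *Lrp2* (genotype means 0.10 to 0.24), *Hhipl1* (0.69 to 0.78) and *Hhipl2* (0.43 to 0.52) lay near the floor, where adding 1 keeps differences small. Turned back, the mean of *Lrp2* was 0.126 in wild type, 0.0744 in *Cilk1*-/- and 0.197 in the compound mutant, with compound mutant 1 at 0.451. These 3 genes are thus not shown to be unchanged.

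The rest of the pathway was read from lists of ligands and release factors, transducers, and targets. Of 9 genes of ligands and release, 0 passed in limma in either direction in any comparison. At an unadjusted p under 0.05, 1 was lower in *Cilk1*-/- and 3 were higher in the compound mutant against wild type. Of all 16755 genes, 3467 and 4470 had such a p in either direction in these comparisons. *Shh* itself differed from wild type by 0.33 in *Cilk1*-/- (interval -0.83 to 1.5) and by -0.03 in the compound mutant (interval -1.29 to 1.23), so its level was not determined closely. Of 17 transducers, *Adrbk1*, a kinase that acts on Smo, fell in *Cilk1*-/- by 0.15 (limma adjusted p = 0.0451). In the compound mutant against wild type *Gpr161*, a ciliary repressor of the pathway, fell by 0.32 (limma adjusted p = 0.0405), and *Spop*, which targets Gli proteins for breakdown, rose by 0.22 (limma adjusted p = 0.0144). Against *Cilk1*-/- the compound mutant had lower *Efcab7*, a partner of the ciliary Evc complex (-0.38, limma adjusted p = 0.0476), and higher *Adrbk1* (0.22, limma adjusted p = 0.0145). With the replicate block neither passed (adjusted p = 0.237 and 0.191), and the *Efcab7* call was lost in 9 of the 11 fits that leave out 1 library. Without compound mutant 1 the *Gpr161* difference no longer passed (-0.29, adjusted p = 0.0929), and its call was lost in 9 of these 11 fits. The call of *Adrbk1* in *Cilk1*-/- was lost in 8 of them. *Smo* differed by -0.14 in *Cilk1*-/- and -0.13 in the compound mutant against wild type, with adjusted p of 0.166 and 0.169.

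Of 14 targets other than *Ptch1* and *Hhip*, 4 passed as lower when *Cilk1*-/- was set against wild type, beside 1.38% of all genes. When the compound mutant was set against wild type 7 passed as lower, beside 3.75% of all genes. In both comparisons 0 passed as higher (at an unadjusted p under 0.05, 0 and 1 were higher). This list and the others were chosen with earlier results of these data known. Their counts and medians are therefore a description and no independent support. *Gli1*, the transcription factor most used as a readout of the pathway, differed from wild type by -0.90 (limma adjusted p = 0.0343) and -1.43 (limma adjusted p = 0.00500), beside -0.89 and -1.66 for *Ptch1*. Its turned-back mean was 53.3% of wild type in *Cilk1*-/- and 37.9% in the compound mutant, beside 53.0% and 32.1% for *Ptch1*. The forkhead genes *Foxf2* and *Foxl1* and the glucocorticoid-inactivating enzyme gene *Hsd11b2* also fell in both. *Foxd1*, *Sostdc1* (an inhibitor of BMP and Wnt) and *Bcl2* (a survival factor) passed as lower in the compound mutant. In *Cilk1*-/- *Sostdc1* (-0.74, limma adjusted p = 0.0545) and *Foxd1* (-0.66, limma adjusted p = 0.0736) did not pass. Their *Cilk1*-/- libraries all lay below wild type, as for 10.7% of all genes. Of the 11 fits that leave out 1 library, the compound mutant call of *Bcl2* was lost in 10 and that of *Foxd1* in 5, and both were lost without compound mutant 1 (-0.24, adjusted p = 0.0706, and -0.84, adjusted p = 0.0590). The *Cilk1*-/- calls of *Gli1* and *Foxl1* were lost in 8 of these fits and that of *Hsd11b2* in 4. *Gli1* overlaps *Arhgap9* and Gm47200 on the opposite strand, and *Gpc3* overlaps Gm14582 and A630012P03Rik, so their reads cannot be told apart either. The paper already reports *Gli1*, *Foxf2*, *Foxl1*, *Hsd11b2* and *Sostdc1* as lower in both mutants, from these same libraries. The median log2 difference of the 14 targets from wild type was -0.47 (*Cilk1*-/-) and -0.43 (compound mutant), beside medians of 0.003 and -0.002 over all genes. Over the 47 measured genes of these lists and the receptor-side relatives, 6 passed in *Cilk1*-/- and 10 in the compound mutant against wild type. Of all 16755 genes, 409 and 1102 passed. With the replicate block the counts over the 47 genes were 0 (13 at an unadjusted p under 0.05) and 3 (*Gli1*, *Foxf2* and *Sostdc1*). Over all genes they were 6 (2319 at an unadjusted p under 0.05) and 28.

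The genes whose pattern over the 11 libraries was most like that of each gene were found among 13027 genes with a mean of at least 1, by Pearson correlation. Genotypes and the unequal compound mutant libraries both shape this likeness, so it is a description. For *Ptch1* these were *Sh3bp4* (0.983), *Anapc1* (0.974), *Mki67* (0.970), *Ddx46* (0.965) and *Cyfip1* (0.964). For *Hhip* they included *Polq* (0.958), *Adcy7* (0.955), *Mki67* (0.943) and *Ppwd1* (0.942). *Mki67*, a marker of cycling cells, was in both lists. For *Cdon* they were *Trpm5* (0.979), *Mageh1* (0.966), *Ap5s1* (0.947), *Nbea* (0.946) and *Sfxn5* (0.942). For *Boc* they included *Alkbh6* (0.959), *P4ha3* (0.958), 9330182L06Rik (0.955) and *Ppp1r3f* (0.947). For *Gas1* they were *P4ha3* (0.961), *Syne4* (0.959), *Acss1* (0.958), *Adamts15* (0.957) and *Synpo2* (0.957), so that *P4ha3*, which codes for a collagen prolyl hydroxylase subunit, was shared by *Boc* and *Gas1*.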

How the data were processed

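RNA of maxillary molar tooth germs was sequenced in 4 wild-type, 4 *Cilk1*-/- and 3 compound mutant libraries. Per the submitters' processing notes, reads were mapped to mm10 with HISAT2 2.0.5 and counted with featureCounts 1.5.0-p3. The authors calculated FPKM values and tested with edgeR. Their deposited table gives 16755 genes on a log2 scale, with a pseudocount of 1 on what is probably FPKM. Values below 0 in 257 genes show a further adjustment, which is not stated in the sources used here. No counts were used, the depth per library is unknown, and errors are those between libraries. Turned back from log2, the values sum to between 339971 and 364616 per library.

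Differences were tested with limma 3.58.1 (R 4.3.3; lmFit, eBayes with trend and robust) in 1 fit of the 3 genotypes over all genes, with Benjamini-Hochberg adjustment over all 16755 genes. A gene passed at an adjusted p under 0.05, and was called where the fold change was also at least 1.5. The fit was run on simulated data with independent errors and the same spread for all libraries of a gene. Such data lack the opposite deviations of same-number libraries and the wide spread of the compound mutant. The simulation therefore does not bear on whether the calls here are sound. The 5 genes and the lists were chosen with earlier results of these data known. Beside the 5 genes, those named are pathway genes that passed in at least 1 comparison, *Shh*, *Smo*, *Gli1* and *Cilk1*, and for each of the 5 genes the 5 most alike genes. *Lrp2*, *Gpc4*, *Gpc6*, *Hhipl1* and *Hhipl2* were named after their values were seen, and some genes that the rule names are not reported here. Figures were drawn with matplotlib 3.10.9 in Python 3.11.15.

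Deviations from the genotype mean of same-number wild-type and *Cilk1*-/- libraries correlated at -0.741, -0.892, -0.848 and -0.792 over all genes for numbers 1 to 4. A set of 84 genes had a same-number pair in which both values were 0, and over the other pairs of these genes the correlations were 0.561, 0.558, 0.583 and 0.298. The numbers were therefore taken as pairs, and results of a fit with this number as a block are given where they change a call. Compound mutant libraries are tied to pairs by number alone, while their labels place them among littermates in set 2. Nothing says that libraries came from separate litters, so p-values measure the spread between these samples. Gene positions are from GENCODE vM21 and promoter windows from RefSeq, both on GRCm38.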

Additional observations from a re-analysis of the deposited data

Results flagged for a closer look

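*Boc* in *Cilk1*-/- replicate 3 stood apart from the other libraries of its genotype. It was at 4.81 on the log2 scale, while the nearest library was at 4.46 and the lowest at 4.40. The gap to the nearest library was 0.851 of the range, above Dixon's critical value for 4 samples. It was the 1 group that stood out of 40 tested, which is no more than chance gives, at 1 in 20 groups. Without this library *Boc* differed between the compound mutant and *Cilk1*-/- by 0.05 in place of -0.04.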

How the results depend on the processing

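*Ptch1* and *Hhip* stayed lower in every comparison under all alternatives run, while their calls changed with the estimate of the spread. With the replicate block, counts of genes called fell from 62 to 4 (*Cilk1*-/- against wild type), from 209 to 26 (compound mutant against wild type) and from 91 to 2 (compound mutant against *Cilk1*-/-), and *Ptch1* (-0.89) and *Hhip* (-0.45) in the first and *Hhip* (-0.49) in the last no longer passed. Calls of the 5 genes other than these did not change with that block. With the block in fits of only the 2 genotypes, 31, 0 and 0 genes were called in limma (2594, 2001 and 1444 at an unadjusted p under 0.05), and *Hhip* no longer passed (-0.45, -0.93 and -0.50), nor did *Ptch1* in the compound mutant against wild type (-1.63). Placing the compound mutant with pair 4 in the block left 4, 0 and 0 called genes (1718, 1277 and 996 at an unadjusted p under 0.05) and ended each call of *Ptch1* (-0.89 and -1.69) and *Hhip* (-0.45, -0.94 and -0.49). The library set as a term left 37, 18 and 1 called genes and also ended these calls, with the same values. Fits of only the 2 genotypes called 130, 34 and 1 genes, *Cdon* then passed in *Cilk1*-/- (0.34), and *Ptch1* (-1.66) in the compound mutant against wild type and *Hhip* (-0.49) against *Cilk1*-/- did not. *Hhip* in *Cilk1*-/- no longer passed with a pseudocount of 0.1 (-0.57), median centring (-0.47) or quantile normalization (-0.49), nor against *Cilk1*-/- in the compound mutant with quantile normalization (-0.52). The pseudocount of 0.1 raised the counts of called genes to 123, 547 and 294. Here and below the cause of a changed call was not tested.

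Of 47 pathway genes, 6, 10 and 2 passed in the 3 comparisons, beside 409, 1102 and 558 of all 16755 genes. At an unadjusted p under 0.05 there were 14, 23 and 11, beside 3467, 4470 and 3882 of all genes. The unadjusted count against *Cilk1*-/- is close to the share over all genes. The passing counts were 0, 3 and 0 with the replicate block (13, 18 and 9 at an unadjusted p under 0.05). Over all genes these were 6, 28 and 2 (2319, 2889 and 2395). With the compound mutant in pair 4 they were 0, 0 and 0 (12, 11 and 4), beside 4, 0 and 0 of all genes (1718, 1277 and 996). With the set term they were 2, 1 and 0, beside 112, 20 and 1 of all genes. In fits of 2 genotypes they were 15, 1 and 0, beside 2544, 41 and 1 of all genes. With the block in fits of 2 genotypes they were 4, 0 and 0, beside 49, 0 and 0 of all genes. With genes of mean at least 1 the last was 1 of 38, beside 358 of 13028.

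Leaving out each library in turn gave *Ptch1* differences of -0.93 to -0.86, -1.94 to -1.37 and -1.04 to -0.48 in the 3 comparisons, and *Hhip* differences of -0.51 to -0.39, -1.03 to -0.86 and -0.58 to -0.41. *Cdon* ran from 0.30 to 0.37, -0.15 to 0.33 and -0.49 to -0.012. *Boc* in the compound mutant ran from -0.11 to 0.49 against wild type and -0.32 to 0.28 against *Cilk1*-/-, and *Gas1* from -0.21 to 0.30 and from -0.29 to 0.22. Reversed single values of *Boc* and *Gas1* were 0.05 and 0.02 without *Cilk1*-/- 3, and -0.01 for *Gas1* without wild type 3. *Gas1* against *Cilk1*-/- also turned to 0.012 with the set term and with the compound mutant in pair 4. Called genes ranged from 15 to 95, 80 to 671 and 36 to 360, and pathway genes passing from 1 to 12, 6 to 19 and 0 to 7. Among other genes with small differences, the sign turned for *Gpc3* (-0.023 with the block in 2 genotypes) and *Smo* (-0.0021 with the set term or pair 4, -0.020 with quantile normalization) between the compound mutant and *Cilk1*-/-. Without single libraries this difference ran from -0.068 to 0.14 for *Gpc3*, -0.025 to 0.041 for *Smo*, -0.43 to 0.019 for *Foxd1* and -1.26 to 0.17 for *Shh*, and that of *Shh* from wild type from -0.92 to 0.51.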
